A study of Mus musculus with 4 samples.

Results

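The p53 target genes described here are a set of 10 named genes: *Trp53*, which encodes p53, and 9 genes that p53 is known to activate, *Cdkn1a*, *Mdm2*, *Zmat3*, *Perp*, *Btg2*, *Ccng1*, *Bax*, *Phlda3* and *Trp53inp1*. They were picked by symbol from the 18598 genes of the deposited table, and all 10 were found. RNA of LSK cells, the lineage-negative bone marrow cells with SCA-1 and c-KIT on their surface that hold the hematopoietic stem and progenitor cells, was sequenced in 2 libraries of *Bptf* cKO mice (*Bptf* f/f;*Mx1*-cre, given the genotype *Bptf* -/- in the labels) and 2 libraries of littermates labelled as controls (*Bptf* f/f). All mice were C57BL/6, about 3 months old and injected with pIpC, and each library held the pooled LSK cells of 5 mice sorted 10 days after cre induction. *Mx1*-cre is driven by an interferon-responsive promoter, is switched on by pIpC in many cell types beside blood cells, and was carried by the *Bptf* cKO mice alone, so that an effect of cre and an effect of *Bptf* loss cannot be told apart. BPTF is the largest subunit of NURF, a chromatin remodeler that slides nucleosomes. The 10 genes were chosen with the difference between these genotypes known, so that their values in this comparison are a description and carry no test.

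p53 is a transcription factor that MDM2, a ubiquitin ligase, keeps at a low level by marking it for destruction. DNA damage and other stresses free p53 from MDM2, mostly through changes in the protein and not in its RNA, and p53 then binds a DNA element made of a pair of similar 10-base repeats and activates genes for cell-cycle arrest, cell death, DNA repair and its own restraint. In hematopoietic stem cells p53 is known for its part in quiescence and in the removal of damaged cells.

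The promoters of the set show where such repeats stand. RefSeq windows on GRCm38.p6, 250 bases before to 50 bases after a transcript start, were matched by symbol for 7 of the 10 genes (8 windows, of which *Cdkn1a* had 2). *Zmat3*, *Perp* and *Trp53inp1* had no window and were not searched. A match to the p53 consensus decamer with no mismatch, which reads the same on both strands, was found in 5 of the 8 windows (62.5%), those of *Cdkn1a*, *Ccng1*, *Bax*, *Mdm2* and *Trp53*, and in 2745 of all 32851 windows (8.36%). A full element of 20 bases, with 2 adjoining decamers, the C and the G of both cores intact and at most 1 mismatch, was found in 22 of all windows (0.067%), and among these 10 genes in *Cdkn1a* and *Ccng1*. The mismatch limit was set after the windows had been seen. The 250 bases before the start are shown for 5 genes that differ in these matches, 5′ to 3′ on the strand of the gene, with capitals for the decamers and elements found.
Cdkn1a, chr17:29090729-29090978, plus strand: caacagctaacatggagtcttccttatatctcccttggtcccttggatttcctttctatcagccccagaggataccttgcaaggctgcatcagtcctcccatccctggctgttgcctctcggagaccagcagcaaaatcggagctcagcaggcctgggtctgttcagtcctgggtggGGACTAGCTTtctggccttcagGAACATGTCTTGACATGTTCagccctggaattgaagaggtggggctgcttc
Ccng1, chr11:40755287-40755536, minus strand: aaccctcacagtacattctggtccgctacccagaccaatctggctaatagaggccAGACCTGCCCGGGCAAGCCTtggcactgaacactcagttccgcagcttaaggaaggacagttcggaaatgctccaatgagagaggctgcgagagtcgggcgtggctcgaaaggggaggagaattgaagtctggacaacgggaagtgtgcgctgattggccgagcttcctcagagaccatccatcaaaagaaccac
Bax, chr7:45466899-45467148, minus strand: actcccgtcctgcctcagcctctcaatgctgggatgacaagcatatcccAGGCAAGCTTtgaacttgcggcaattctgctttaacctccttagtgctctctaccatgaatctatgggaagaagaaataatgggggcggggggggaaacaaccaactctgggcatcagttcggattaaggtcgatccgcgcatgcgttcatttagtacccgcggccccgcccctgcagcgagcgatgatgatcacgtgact
Mdm2, chr10:117710759-117711008, minus strand: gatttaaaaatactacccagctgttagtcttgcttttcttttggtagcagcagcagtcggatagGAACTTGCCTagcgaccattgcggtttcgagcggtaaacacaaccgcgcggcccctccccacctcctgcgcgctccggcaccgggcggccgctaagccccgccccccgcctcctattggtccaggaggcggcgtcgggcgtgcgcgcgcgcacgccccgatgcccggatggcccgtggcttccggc
Phlda3, chr1:135765835-135766084, plus strand: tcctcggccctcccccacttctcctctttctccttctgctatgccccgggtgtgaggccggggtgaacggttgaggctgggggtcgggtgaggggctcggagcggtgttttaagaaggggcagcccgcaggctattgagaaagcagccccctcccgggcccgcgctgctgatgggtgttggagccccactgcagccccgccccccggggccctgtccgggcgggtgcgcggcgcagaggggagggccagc

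The element of *Cdkn1a*, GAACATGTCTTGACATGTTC at chr17:29090928-29090947, lies 51 to 32 bases before the upstream of the 2 RefSeq starts of the gene, and a separate decamer stands just before it. The window of its other start, whose upstream part is chr17:29093519-29093768, held no decamer. The element of *Ccng1*, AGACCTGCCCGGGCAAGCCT at chr11:40755462-40755481, lies 195 to 176 bases before the start. *Bax* and *Mdm2* held 1 decamer each, and the windows of *Phlda3* and *Btg2* held none. Of the other p53 targets listed further on, *Rps27l* and *Gtse1* had a full element in a window. The share of their windows with a decamer was 33.3% for arrest, 19% for apoptosis and 12.5% for repair targets. It was 4.35% for metabolism targets, 14.3% for further targets and 13% for the controls of p53. These lists had 8 to 23 windows each. A match is a run of letters, not a measured binding site, and only these windows were searched.

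*Bptf* itself had 5520.4 and 5850.1 normalized counts (reads per gene after division by the size factor of the library) in the control libraries, replicate 1 first as in all that follows, against 3398 and 3319.9 in the cKO libraries, so both libraries labelled cKO were below both controls. The libraries held 14091054 to 30134742 reads on the listed genes, the fewest in the replicate 2 libraries. The LSK markers *Kit* (13634 to 17051) and *Ly6a* (726 to 1743) were present in every library. The replicate 2 libraries of both genotypes stood apart. The summed level of 7 pluripotency genes was 945 and 1201 in them and 3.88 and 5.20 in the replicate 1 libraries, where *Pou5f1* was at 0. *Xist* was at 15675 and 11843 in the replicate 2 libraries against 0.775 and 3.25. The Y-linked gene *Ddx3y* was present in every library. It was at 456 in *Bptf* f/f and 769 in *Bptf* cKO in the replicate 2 libraries, against 1837 and 1835 in the replicate 1 libraries. For the p53 target set the difference is therefore also given between the replicate 1 libraries alone, as 1 library against 1 with no test. Markers of other cells differed too. All 9 tested erythroid genes of a list of 10 had a lower mean in *Bptf* cKO, and limma called 1 of them lower, where 0.37% of all tested genes were, *Epor*, the erythropoietin receptor (log2 fold change -1.96, adjusted p = 0.0443). This call was lost with edgeR (adjusted p = 0.0513) and without any 1 of the 4 libraries (0.0847 to 0.299). The summed level of that list was 2044 to 2706 in *Bptf* f/f and 509.5 to 594 in *Bptf* cKO. The summed level of 11 myeloid genes was 15949.6 in *Bptf* f/f replicate 2 and 50706 to 72810.3 in the other libraries. Of these genes 4 were higher and 7 lower in *Bptf* cKO, with log2 fold changes from -1.22 to 2.86. Lower as well were 7 of 8 tested megakaryocyte genes, 10 of 11 lymphoid genes and 6 of 6 genes of stroma and endothelium. In each of these 4 lists limma called 0 genes. The part of these cells in the results that follow was not tested. In bulk RNA, fewer cells of a type and less RNA per cell cannot be told apart.

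Most of the p53 targets were higher in *Bptf* cKO LSK cells, whereas the RNA of p53 itself and of its inhibitor *Mdm2* differed little between the genotypes. The log2 fold change (*Bptf* cKO minus *Bptf* f/f) was above 0 for 8 of the 10 genes, against 50.2% of the 14858 tested genes, those whose mean reached 10 normalized counts, and its median was 0.84, against 0.0010 over all those genes. Both *Bptf* cKO libraries were above both *Bptf* f/f libraries for 7 of the 10, an order that 23.2% of all tested genes showed, and below them for 1, *Btg2*, against 23.8% of all tested genes. In the fit across all genes with limma, a linear model that shares the estimate of the spread between genes, with Benjamini-Hochberg adjustment, 2 of the 10 (*Zmat3* and *Perp*) had an adjusted p under 0.05, a threshold that 0.74% of all tested genes passed. Nothing is read from these counts, since this comparison was known when the genes were chosen. Without either one of the *Bptf* cKO libraries 0 of the 10 passed, and 1 gene of all those tested did in each case. With 1 library of either genotype left out at a time, the median log2 fold change of the 10 genes ran from 0.76 to 1.15.

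**Figure D1:**
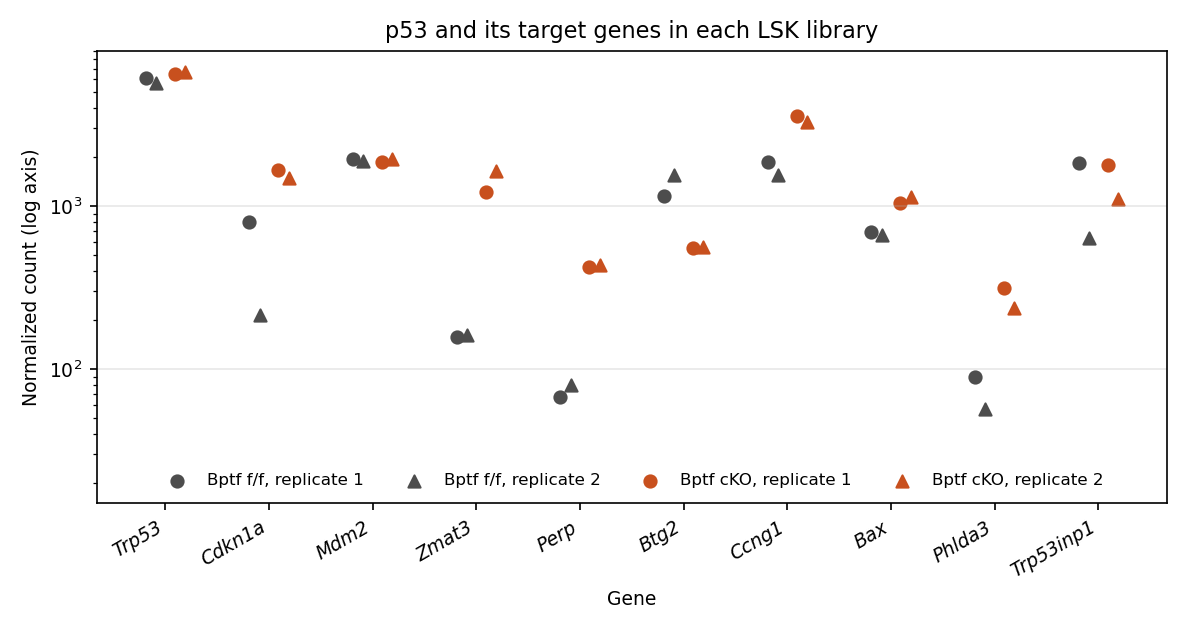
Normalized counts of the 10 genes on a log axis, with 1 point per library, circles for replicate 1 and triangles for replicate 2, dark for *Bptf* f/f and orange for *Bptf* cKO. *Zmat3* and *Perp* show the widest gap between the genotypes (log2 fold changes of 3.13 and 2.52), *Btg2* lies the other way (-1.27), and the points of *Mdm2* coincide (-0.022).

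*Trp53* had 6161 and 5689 normalized counts in *Bptf* f/f against 6516 and 6710 in *Bptf* cKO. The *Bptf* cKO libraries were higher by a small margin, a log2 fold change of 0.16 (standard error 0.093), and the difference was 0.081 between the replicate 1 libraries alone. *Mdm2*, a p53 target as well as its inhibitor, had 1956 and 1897 in *Bptf* f/f and 1859 and 1936 in *Bptf* cKO. The libraries of the genotypes overlapped, with a log2 fold change of -0.022 (standard error 0.095) that became 0.029 when the libraries were recentred on their medians. It was -0.073 between the replicate 1 libraries alone. The gene for p53 lies on chromosome 11 from 69580359 to 69591873 and *Mdm2* on chromosome 10 from 117688875 to 117710758, where these and the following positions are GENCODE vM21 coordinates of GRCm38, a build named in the processing notes of the labels.

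Of the 3 genes of cell-cycle arrest, both *Bptf* cKO libraries were above both controls for *Cdkn1a* and *Ccng1* and below them for *Btg2*. *Cdkn1a*, on chromosome 17 from 29090976 to 29100727, encodes p21, which blocks cyclin-dependent kinases. It had 795 and 213 normalized counts in *Bptf* f/f against 1676 and 1486 in *Bptf* cKO, 504 ± 411 against 1581 ± 135 (SD, n = 2 libraries each). Both *Bptf* cKO libraries were above both controls, but the controls differed from each other by 3.72-fold, more than any other gene of the set. An unclassified transcript, AC167363.2, overlaps it on the opposite strand, and whether reads were counted by strand is not given in the sources used here. Its log2 fold change was 1.93 (standard error 0.59), with 1.08 between the replicate 1 libraries and 2.79 between the replicate 2 libraries. *Ccng1*, on chromosome 11 from 40748552 to 40755311, encodes cyclin G1, which brings a phosphatase to MDM2. It had 1880.4 and 1548 in *Bptf* f/f and 3568 and 3303 in *Bptf* cKO. This was a log2 fold change of 1.01 (standard error 0.13), a level 2.01-fold higher, with 0.92 between the replicate 1 libraries. *Btg2*, on chromosome 1 from 134075170 to 134079120, encodes an antiproliferative partner of the mRNA deadenylase complex and is also known as an early-response gene of growth-factor signalling. It was lower, with 1159.6 and 1563 in *Bptf* f/f and 556 and 560.1 in *Bptf* cKO, a log2 fold change of -1.27 (standard error 0.17) and -1.06 between the replicate 1 libraries.

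Of the 4 genes of cell death and survival, both *Bptf* cKO libraries were above both controls for *Bax*, *Perp* and *Phlda3*, and the libraries of *Trp53inp1* overlapped. *Bax*, on chromosome 7 from 45461697 to 45466898, encodes a BCL2 family protein that opens the outer mitochondrial membrane. It had 699 and 668 normalized counts in *Bptf* f/f and 1050.3 and 1139 in *Bptf* cKO, a log2 fold change of 0.68 (standard error 0.12) and 0.59 between the replicate 1 libraries. The annotated gene *Gm45808* overlaps *Bax* on the same strand, and how reads of the overlap were assigned is not given in the sources used here. *Perp*, on chromosome 10 from 18845020 to 18857073, encodes a membrane protein of desmosomes that also takes part in p53-dependent apoptosis. It had 67.4 and 80.4 in *Bptf* f/f and 420.5 and 433 in *Bptf* cKO, with libraries of a genotype close together and a log2 fold change of 2.52 (standard error 0.20), or 2.62 between the replicate 1 libraries. *Phlda3*, on chromosome 1 from 135766119 to 135769136, encodes a lipid-binding protein that keeps the survival kinase AKT from the membrane. It had 89.1 and 56.8 in *Bptf* f/f and 313 and 237 in *Bptf* cKO, a log2 fold change of 1.92 (standard error 0.31) and 1.80 between the replicate 1 libraries, and was the least sequenced of the set, with 41 reads in its lowest library. *Trp53inp1*, on chromosome 4 from 11156431 to 11174379, encodes a stress protein of p53 signalling and autophagy. It had 1835 and 635 in *Bptf* f/f and 1793 and 1101 in *Bptf* cKO. In both genotypes the replicate 1 library of *Trp53inp1* was the higher one. The log2 fold change was 0.38 (standard error 0.53), with -0.034 between the replicate 1 libraries and 0.79 between the replicate 2 libraries, and it was -0.39 without *Bptf* f/f replicate 2.

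*Zmat3*, on chromosome 3 from 32334792 to 32366014, encodes a zinc-finger RNA-binding protein that acts on the splicing and stability of other transcripts. It had 158 and 162 normalized counts in *Bptf* f/f and 1219 and 1635 in *Bptf* cKO. The controls differed by 1.03-fold and the *Bptf* cKO libraries by 1.34-fold, and the level was 8.77-fold higher in *Bptf* cKO on the scale of the normalized count plus 1. The log2 fold change was 3.13 (standard error 0.18), with 2.94 between the replicate 1 libraries. By size of log2 fold change it ranked 58 from the top of the 14858 tested genes, *Perp* 88, *Cdkn1a* 144, *Phlda3* 147 and *Ccng1* 462, while *Btg2* ranked 475 from the bottom.

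Levels can be compared between genes only per length, here as the mean normalized count per kilobase of the longest annotated transcript. In *Bptf* f/f LSK cells *Trp53* was the highest, at 1809 ± 102 (SD, n = 2), followed by *Bax* at 621 (607 and 636 in the 2 libraries) and *Mdm2* at 613 ± 13.1, whose libraries overlapped. *Btg2* (496 ± 104) and *Ccng1* (488 ± 66.9) came next and overlapped, then *Cdkn1a* (242 ± 198) and *Trp53inp1* (227 ± 156), which overlapped as well. The lowest were *Phlda3* (50.9 ± 15.9), *Perp* (37.9 ± 4.69) and *Zmat3* (20.5 ± 0.37), and of these *Phlda3* and *Perp* overlapped. In *Bptf* cKO LSK cells *Trp53* (2019 ± 42.0) stayed the highest, and *Bax* (995 ± 56.8) and *Ccng1* (978 ± 53.4) overlapped below it. *Cdkn1a* (760 ± 64.7) stood above *Mdm2* (603 ± 17.3), the reverse of their order in *Bptf* f/f. The 5 lowest genes lay between 183 ± 37.7 for *Zmat3* and 266 ± 90.2 for *Trp53inp1*, and of the neighbours among them only *Perp* (219 ± 4.59) and *Btg2* (203 ± 1.15) did not overlap. The longest protein-coding transcript as the length gave the same order in both genotypes.

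**Figure D2:**
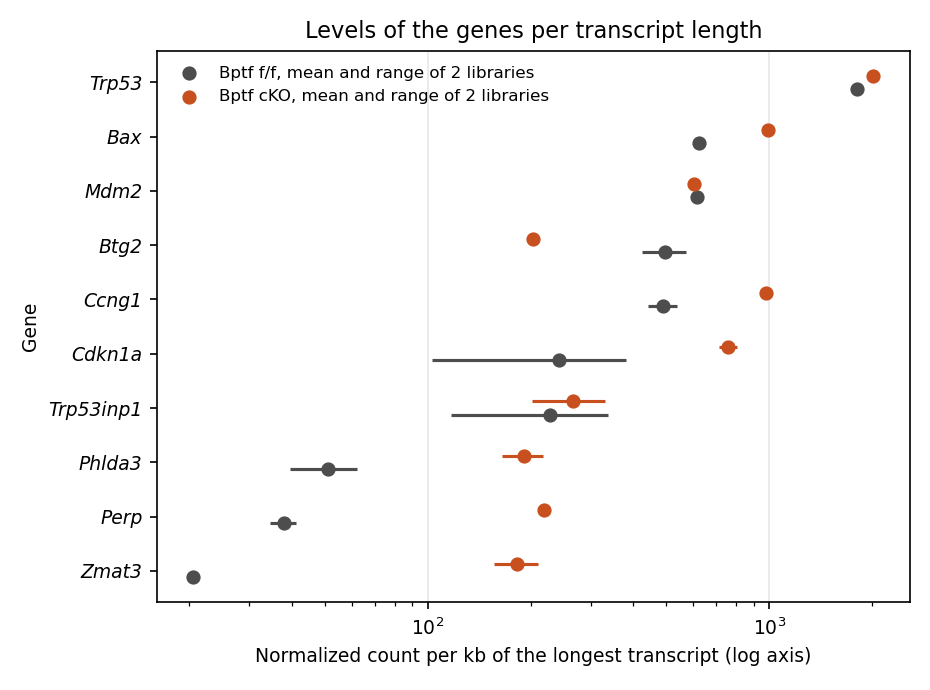
Mean normalized count per kilobase of the longest transcript, on a log axis, with a line from the lower to the higher of the 2 libraries of each genotype. *Trp53* is the highest gene in both genotypes (1809 and 2019 per kilobase), and *Zmat3* is the lowest in both (20.5 and 183).

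The controls of p53 upstream of its targets were compared next, to see whether its regulators differed between the genotypes. Of the 16 tested genes of this list, among them the kinases ATM, ATR, CHK1 and CHK2, the deubiquitinase USP7 and MDM4, 0 were called by limma, with 0 at an unadjusted p under 0.05 and 0 called by edgeR or DESeq2. Their log2 fold changes ran from -0.29 for *Chek2* and -0.28 for *Trim24*, a ubiquitin ligase of p53, to 0.24 for *Atm*, with a median of -0.015. *Usp7*, which removes ubiquitin from both MDM2 and p53 and was the highest gene of the list, had 6047 and 6452 normalized counts in *Bptf* f/f and 6588 and 6308 in *Bptf* cKO. *Mdm4*, which binds p53 and holds its activity down, had 5518 and 5389 in *Bptf* f/f and 6572 and 6133 in *Bptf* cKO. Its *Bptf* cKO libraries were the higher ones, by 0.22 on the log2 scale (limma adjusted p = 0.335).

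Other textbook targets of p53 were grouped by role, with 68 genes tested in 5 lists. These lists too were written with earlier results of these data known, so the counts and shares below are a description. limma called 2 of them, *Aen* and *Sesn2*, as higher in *Bptf* cKO (0.37% of all tested genes were called higher) and 0 as lower. At an unadjusted p under 0.05, 16 of the 68 were higher and 4 lower, against 6.79% and 8.96% of all tested genes. edgeR called 1 higher and 0 lower (0.33% and 0.303% of all tested genes), and DESeq2 9 and 2 (2.14% and 3.3%). In 30 of the 68 (44.1%) both *Bptf* cKO libraries were above both controls, against 23.2% of all tested genes, and in 13 (19.1%) both were below, against 23.8%. The median log2 fold change of the 68 was 0.14. The 7 genes among them that are also known as targets of ATF4 or CHOP, transcription factors of the stress response, all had log2 fold changes above 0, with a median of 0.98. The median of the other 61 was 0.082, with 36 above 0 and 25 below. Both *Bptf* cKO libraries were above both controls for 25 of these 61 and below them for 13. For the 7 genes these counts were 5 and 0. The same orders were shown by 23.2% and 23.8% of all tested genes. A split by early-response genes was made as well. The 6 early-response genes had 3 above 0 and 3 below, with a median of 0.047, against 0.14 for the other 62. Neither split was among the planned results.

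Among 15 targets of apoptosis 13 had a log2 fold change above 0, with a median of 0.28. *Aen*, an apoptosis-enhancing nuclease, rose in *Bptf* cKO, to 1575 and 1548 normalized counts against 873 and 886 in the controls, or by 0.83 on the log2 scale (limma adjusted p = 0.0462, standard error 0.10). This call was lost without any 1 of the 4 libraries, at adjusted p values of 0.0776 to 0.327, and with edgeR, at 0.0504. *Bbc3*, which encodes the BCL2 antagonist PUMA, had 276 and 197 in *Bptf* f/f and 713 and 522 in *Bptf* cKO (log2 fold change 1.38, limma adjusted p = 0.0915). *Eda2r*, a receptor of the TNF family that is named here after its values were seen, had 25.6 and 36.0 against 154 and 133 (2.20, adjusted p = 0.0632). *Apaf1*, the core of the apoptosome, had 0.29 (adjusted p = 0.299), while the caspase gene *Casp6* and *Steap3* had -0.45 and -0.28 (adjusted p = 0.235 and 0.458).

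The 18 targets of metabolism and redox control had a median of -0.093, with 7 above 0 and 11 below. *Sesn2*, which restrains mTORC1 under stress and is a target of ATF4 too, rose to 1406 and 1781 normalized counts in *Bptf* cKO against 364 and 362 in the controls, or by 2.12 on the log2 scale (limma adjusted p = 0.0204, standard error 0.15). The call was lost without *Bptf* cKO replicate 1 (adjusted p = 0.0801) and without *Bptf* cKO replicate 2 (0.145). Its relative *Sesn1* had 2677 and 2262 in *Bptf* f/f and 1950.4 and 1878 in *Bptf* cKO (-0.36 on the log2 scale, adjusted p = 0.252). *Gdf15*, a secreted stress factor of few reads, had 17.1 and 33.3 against 209 and 186 (2.99, adjusted p = 0.0555). *Gpx1*, a glutathione peroxidase and the most abundant of the list, had -0.22 (adjusted p = 0.400), and *Prkab1*, a subunit of AMPK, -0.41 (adjusted p = 0.426).

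Of 10 targets of arrest limma called 0, with 2 higher and 1 lower at an unadjusted p under 0.05 (15.7% of all tested genes passed it either way). edgeR called 0 of them and DESeq2 1 higher and 1 lower (0.633% and 5.44% of all tested genes either way). *Trp53cor1*, a long noncoding RNA that is the upstream neighbour of *Cdkn1a*, had 101 and 20.8 normalized counts in *Bptf* f/f and 203 and 254 in *Bptf* cKO (log2 fold change 2.28, standard error 0.73, adjusted p = 0.246). Like *Cdkn1a*, it was lower in *Bptf* f/f replicate 2 than in replicate 1. For *Pvt1* the difference was 1.05 on the log2 scale (adjusted p = 0.120), for *Ptpn14*, a phosphatase that restrains YAP, -0.83 (adjusted p = 0.118), and for *Plk2* and *Ckap2* -0.12 and -0.025, with overlapping libraries. The sign of *Ckap2* turned with recentred libraries (0.026). Of 10 targets of DNA repair limma called 0, with 0 at an unadjusted p under 0.05 and 0 called by edgeR or DESeq2. Their log2 fold changes ran from -0.18 for *Xpc* to 0.43 for *Rad51c*, with *Rrm2b*, a p53-induced subunit of ribonucleotide reductase, at 0.41 and *Pcna*, the replication clamp, at -0.16. Of 15 further targets limma called 0, with 7 higher and 1 lower at an unadjusted p under 0.05, against the same 15.7% either way. edgeR called 0 of these and DESeq2 3 higher and 1 lower, against the same 5.44%. *Sulf2* and *Tap1*, the peptide transporter of antigen presentation, had log2 fold changes of 1.15 and 0.48 (adjusted p = 0.161 and 0.252). *Thbs1*, an inhibitor of new vessels, had -1.81 (adjusted p = 0.148) and the repressor *Bcl6* -0.18 (adjusted p = 0.896). The row 9030617O03Rik of the same list had 335 and 245 normalized counts against 626 and 674 (1.18, adjusted p = 0.0816).

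**Figure D3:**
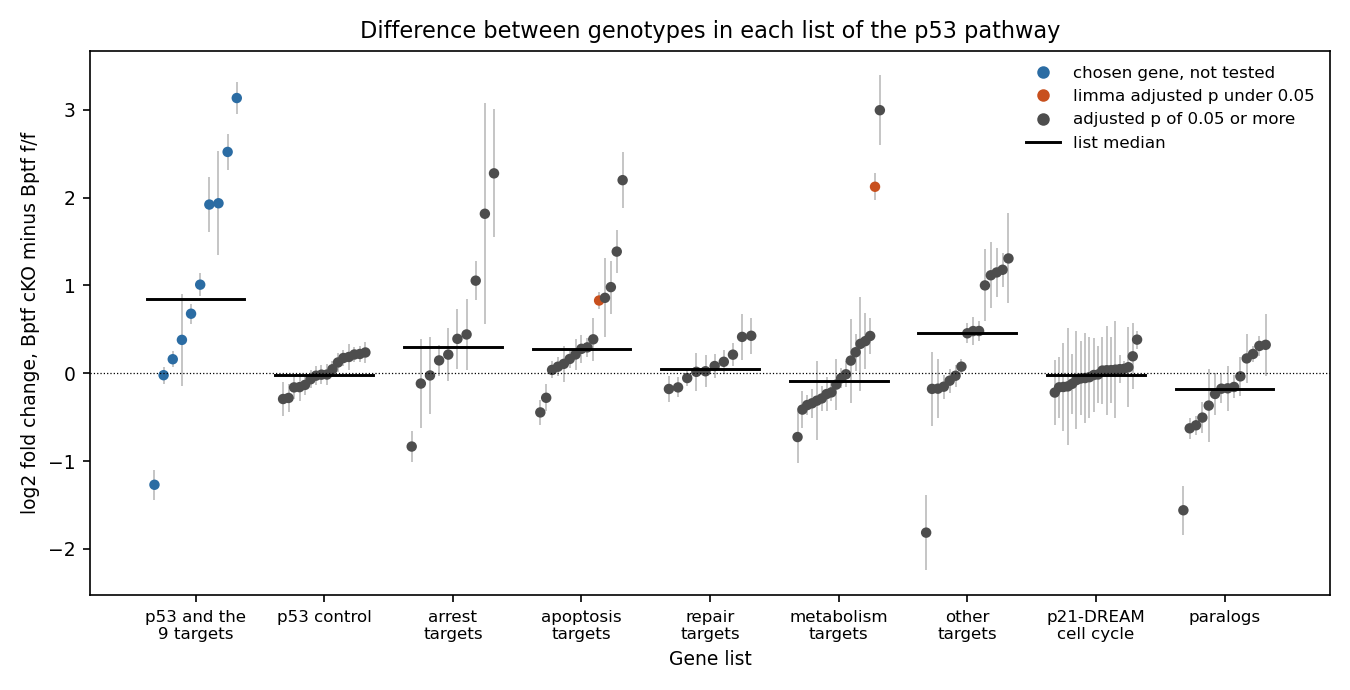
log2 fold change (*Bptf* cKO minus *Bptf* f/f) of each tested gene, 1 point per gene with its standard error from limma, by list, with a black line at the list median. The chosen genes in blue have a median of 0.84, the apoptosis targets 0.28 and the p53 controls -0.015, and the orange points are *Aen* and *Sesn2*.

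p21 lowers many cell-cycle genes through the DREAM repressor complex, so 20 such genes were set beside *Cdkn1a*. Most of them are genes of the G2 phase and mitosis, but *Mcm5*, *E2f1* and *Mybl2* are not. limma called 0 of them, with 1 at an unadjusted p under 0.05 and 0 called by edgeR or DESeq2, and their median log2 fold change was -0.017. The largest difference was that of *Mybl2*, a transcription factor of the cell cycle, at 0.38 (adjusted p = 0.185), while *Foxm1* and *Aurkb* had -0.22 and -0.16. These genes differed by replicate number instead. In 17 of the 20 both replicate 2 libraries were above both replicate 1 libraries, which 19.2% of all tested genes showed. *Mki67*, the proliferation marker, had 13275.5 and 24868 normalized counts in the controls against 15892 and 27137 in *Bptf* cKO, and the topoisomerase gene *Top2a* had 15196 and 25891 against 15523 and 24862. No gene of the p53 target set showed that order. The log2 fold changes of *Mki67* and *Top2a* were 0.19 (standard error 0.38) and -0.014 (standard error 0.33). The fit held genotype only, so these standard errors include the difference by replicate number. Between same-numbered libraries, replicate 1 first, the differences were 0.26 and 0.13 for *Mki67* and 0.031 and -0.058 for *Top2a*.

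**Figure D4:**
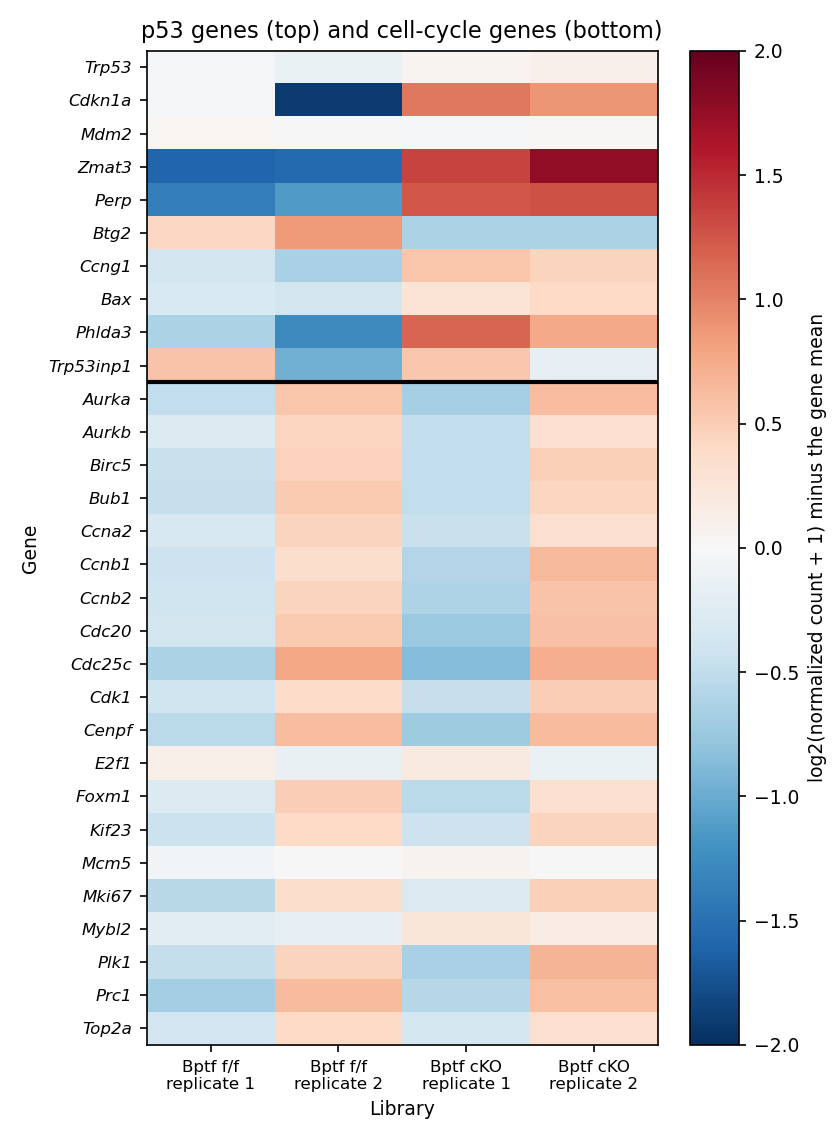
log2 of the normalized count plus 1, minus the mean of the gene over the 4 libraries, for the p53 target set (above the line) and 20 cell-cycle genes (below it). In the upper block the columns differ mainly by genotype. Exceptions are *Trp53inp1*, *Cdkn1a*, whose controls differ by 3.72-fold, and the pale rows of *Trp53* and *Mdm2*. In the lower block 17 of the 20 genes are higher in both replicate 2 libraries.

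The closest relatives of the 10 genes were compared in the same fit. limma called 0 of 14 tested paralogs, with 1 higher and 4 lower at an unadjusted p under 0.05 (6.79% and 8.96% of all tested genes). edgeR called 0 and DESeq2 3, all 3 of them lower in *Bptf* cKO (3.3% of all tested genes). Their median log2 fold change was -0.17. Promoter windows were matched for 13 of the 17 listed paralogs. Of these 16 windows 0 held a p53 decamer, where 8.36% of all windows did, and 16 windows are too few to show a difference from that share. *Cdkn1b* and *Cdkn1c*, the other cyclin-dependent kinase inhibitors of the p21 family, had log2 fold changes of -0.24 and 0.32 (adjusted p = 0.700 and 0.731), and the libraries of both overlapped. *Ccng2*, the relative of *Ccng1*, had 1643 and 1472 normalized counts in *Bptf* f/f and 1038 and 1024 in *Bptf* cKO (-0.59 on the log2 scale, adjusted p = 0.0965). *Btg1*, the closest relative of *Btg2*, had 1680.5 and 1631 against 1163 and 988 (-0.63, adjusted p = 0.107), the same sign as *Btg2*. *Btg3*, *Tob1* and *Tob2* of the same family had -0.036 (0.016 with recentred libraries), -0.50 and -0.16. *Bak1*, which opens mitochondria as *Bax* does, had 1748 and 1817 against 2060 and 2373 (0.31, adjusted p = 0.283), and *Bok* had -0.17. *Phlda1* and *Phlda2* had -0.37 and 0.17, *Zmat1* had -0.18, and *Trp53inp2* had 118 and 114 against 36.4 and 40.9 (-1.56, adjusted p = 0.0914). *Trp63*, *Trp73*, *Zmat4* and the p53 activator *Cdkn2a* had no row among the listed genes, so they were not analysed here.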

How the data were processed

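LSK cells were measured by RNA-seq in 2 *Bptf* cKO and 2 *Bptf* f/f libraries, grouped by the sample titles. The labels name HISAT2, featureCounts, DESeq2 and the builds GRCm38 and mm10, with no versions. The authors deposited a signal, gene counts divided by 1 size factor per library, beside their own fold changes and p-values, which were not used. Division by the smallest value above 0 in a library gave whole reads for 100% of values (tolerance 1e-06 reads), which gave 14091054 to 30134742 reads per library. edgeR on these reads called 49 genes higher and 45 lower. The lowest listed gene summed to 11 reads in all 4 libraries together. Each replicate pooled 5 mice, so the spread is between pools.

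Genes with a mean of at least 10 (14858) were compared as log2(normalized count + 1), which understates the change of low genes, with limma 3.58.1 in R 4.3.3 (mean-variance trend, genotype only, two-sided, Benjamini-Hochberg adjustment, called under 0.05). edgeR 4.0.16 and DESeq2 1.42.0 on the recovered reads, a replicate block, pseudocounts of 0.5 and 10, no filter, a mean of at least 50, recentred libraries and each library left out were alternatives, and same-numbered libraries alone were added after the data were seen. The fits were also run on simulated counts with the same spread setting for all genes, so that run does not vouch for the calls here. A planned comparison of protein sequences was not run. An exact permutation test of 2 against 2 libraries cannot give a p below 0.333. The genes and lists were chosen with earlier results of these data known. Beside the 10 genes and *Bptf*, the text names all paralogs, and in each other list the called genes, the 2 largest and 2 smallest log2 fold changes at a mean of at least 100, and the most abundant gene. Promoter windows came from RefSeq, and positions and transcript lengths from GENCODE vM21. Python 3.11.15, pandas 2.3.3 and numpy 2.4.6 were used.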

Additional observations from a re-analysis of the deposited data

How the results depend on the processing

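The sign of the log2 fold change held under every alternative for 8 of the 10 genes, and turned for *Mdm2* (recentred, without *Bptf* cKO replicate 1, replicate 2 alone) and *Trp53inp1* (without *Bptf* f/f replicate 2, replicate 1 alone). The count called, 2 of 10, was 3 with a pseudocount of 10, no filter or recentring. Over all tested genes these 3 settings called 62, 65 and 60 higher and 61, 69 and 48 lower. The count was 6 of the 10 with DESeq2, which called 5.44% of all tested genes. Depth, 2 libraries per genotype and pooled mice limit low genes such as *Phlda3*. The causes of the changes below were not tested.

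The replicate numbers are shared by the genotypes, and the deviations of same-numbered libraries from their genotype means correlated at 0.452 over 14858 genes and at 0.638 over the 10815 whose mean reached 100. Same-numbered libraries were thus alike, also in the pluripotency and cell-cycle genes given above, but no label says that a number marks a pairing and there are only 2 pairs, so the block was kept as an alternative. With a replicate block limma called 896 genes higher and 1242 lower, against 55 each without it, and edgeR 891 and 1229. It called 7 of the 10 genes (6 higher, 1 lower) with either tool. With the block in limma and in edgeR alike, 1 paralog, 3 arrest, 2 metabolism, 6 other targets and 1 cell-cycle gene were higher, and 3 paralogs and 1 arrest, 1 metabolism and 1 other target were lower. Apoptosis targets called higher under the block were 3 in limma and 4 in edgeR, with 1 lower in limma.

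DESeq2 called 318 genes higher and 490 lower, with 1 arrest, 3 apoptosis, 2 metabolism and 3 other targets higher and 3 paralogs, 1 arrest and 1 other target lower. edgeR called 0 apoptosis targets. Metabolism targets called higher were 2 with a pseudocount of 10 or no filter. The median of the other targets was 0.26 at a mean of at least 50. Recentring moved the metabolism median to -0.042 and turned *Btg3* to 0.016, *Ckap2* to 0.026 and *Top2a* to 0.038. In the replicate 1 libraries alone the medians were 0.071 (p53 controls), -0.23 (metabolism) and 0.26 (other), with *Btg3* at 0.047, *Bok* at 0.20, *Plk2* at 0.35 and *Top2a* at 0.031. In the replicate 2 libraries alone they were 0.17 (arrest), 0.12 (repair), 0.034 (metabolism) and 0.31 (other), with *Cdkn1c* at -0.22, *Usp7* at -0.032 and *Bcl6* at 0.18.

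Leaving out 1 library at a time, limma called 1 to 76 genes higher (1 without either *Bptf* cKO library) and 0 to 41 lower (0 without either *Bptf* cKO library, 17 without *Bptf* f/f replicate 2); a lone library was assumed to vary like the others. Calls higher were 0 to 0 for apoptosis, 0 to 1 for arrest and 0 to 2 for metabolism targets. Medians ran from 0.76 to 1.15 for the 10 genes, 0.14 to 0.64 (arrest), -0.21 to -0.0056 (metabolism), 0.26 to 0.48 (other), -0.24 to -0.10 (paralogs) and 0.018 to 0.14 (repair). Log2 fold changes whose sign turned ran from -0.57 to 0.25 for *Aurkb*, -0.73 to 0.38 for *Bcl6*, -0.44 to 0.093 for *Bok*, -0.079 to 0.0076 for *Btg3*, -0.56 to 0.088 for *Cdkn1b*, -0.15 to 0.80 for *Cdkn1c*, -0.53 to 0.48 for *Ckap2*, -0.65 to 0.21 for *Foxm1*, -0.26 to 0.65 for *Mki67*, -0.87 to 0.64 for *Plk2*, -0.40 to 0.37 for *Top2a* and -0.0012 to 0.092 for *Usp7*.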
